A study of Mus musculus with 4 samples.

Results

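Neuregulin 1 and the 4 ErbB receptors were followed as a signalling system through single cells of the mouse Tbx1 lineage. The members were 5 listed genes, Nrg1, Egfr, Erbb2, Erbb3 and Erbb4, matched by Ensembl identifier among the 27514 genes that all 4 libraries shared, and all 5 were present. The questions were which cell groups held the ligand transcript (the senders), which held the receptor transcripts (the receivers), and how both stood by stage and genotype.

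Neuregulin 1 carries an EGF-like domain, is made in secreted and membrane-bound forms, and binds ErbB3 or ErbB4. ErbB2 binds no known ligand and acts as a partner, while ErbB3 has little kinase activity of its own, so a cell that answers neuregulin usually needs ErbB2 together with ErbB3, or ErbB4. In the embryo, neuregulin from the endocardium acts on ErbB2 and ErbB4 of the myocardium during trabeculation, and neural crest and glial precursors use ErbB3. EGFR is the receptor of EGF, TGF-alpha, HB-EGF and amphiregulin and does not itself bind neuregulin 1.

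The embryos were on a Swiss Webster background. Control (Ctrl) embryos were Tbx1Cre/+;Rosa26-GFPflox/+ and conditional knockout (cKO) embryos were Tbx1Cre/flox;Rosa26-GFPflox/+. Each was taken at E8.5 (the upper part of the body) and at E9.5 (the pharyngeal apparatus and heart, with the back). GFP-positive, DAPI-negative cells were sorted from pooled embryos and captured as 1 library per group, with a 3′ kit that counts molecules by unique molecular identifiers (UMIs). The Cre is a knock-in that inactivates a Tbx1 copy, so Ctrl cells also carried an inactive allele. Only cells with a history of Tbx1 expression were sampled, which leaves out most neural crest and, by the paper's account, the first heart field.

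The libraries held between 1090 and 6266 cells and between 25391654 and 104773150 UMIs, with a median of 15910.5 to 23984 UMIs per cell, and 2 to 55 cell barcodes were shared by any pair of them. With 1 library per group there was no replicate, genotype and library cannot be told apart, and the bracketed ranges are 95% intervals of counting error alone. Levels are given as UMIs per 1000000 UMIs of the shared genes (UPM) and are compared only within a gene. Tbx1 was at 86.4 UPM in Ctrl and 118 in cKO at E8.5 and at 103 and 134 at E9.5, so it was not lower in the cKO libraries and its 3′ count does not check the genotype labels. Cell classes were rebuilt by clustering and named "-like" from marker genes in Ctrl cells alone, and 24.8% to 35.8% of the cells of a library stayed unnamed. The cKO cells took the name of their cluster, and their own markers were not checked. The named mesodermal classes were BrM-like (with markers of branchiomeric muscle), MLP-like (of multilineage progenitors), aSHF/SoM-like (of the anterior second heart field and somatic mesoderm), pSHF-like (of the posterior second heart field), cardiomyocyte-like (CM-like), mesenchyme-like and endothelial-like cells. The others were pharyngeal endoderm-like, surface ectoderm-like, otic-like, neural-like and neural crest-like. None of the 5 members was used to cluster the cells.

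Each member had its own map over these classes. Nrg1 was highest in MLP-like and BrM-like cells of the Ctrl libraries. At E9.5 Erbb3 lay mostly in epithelium and Erbb4 mostly in CM-like cells, and Egfr was sparse, with most of its UMIs in mesenchyme-like cells. Erbb2 was found in every named class that had at least 20 cells in a library.

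**Figure D1:**
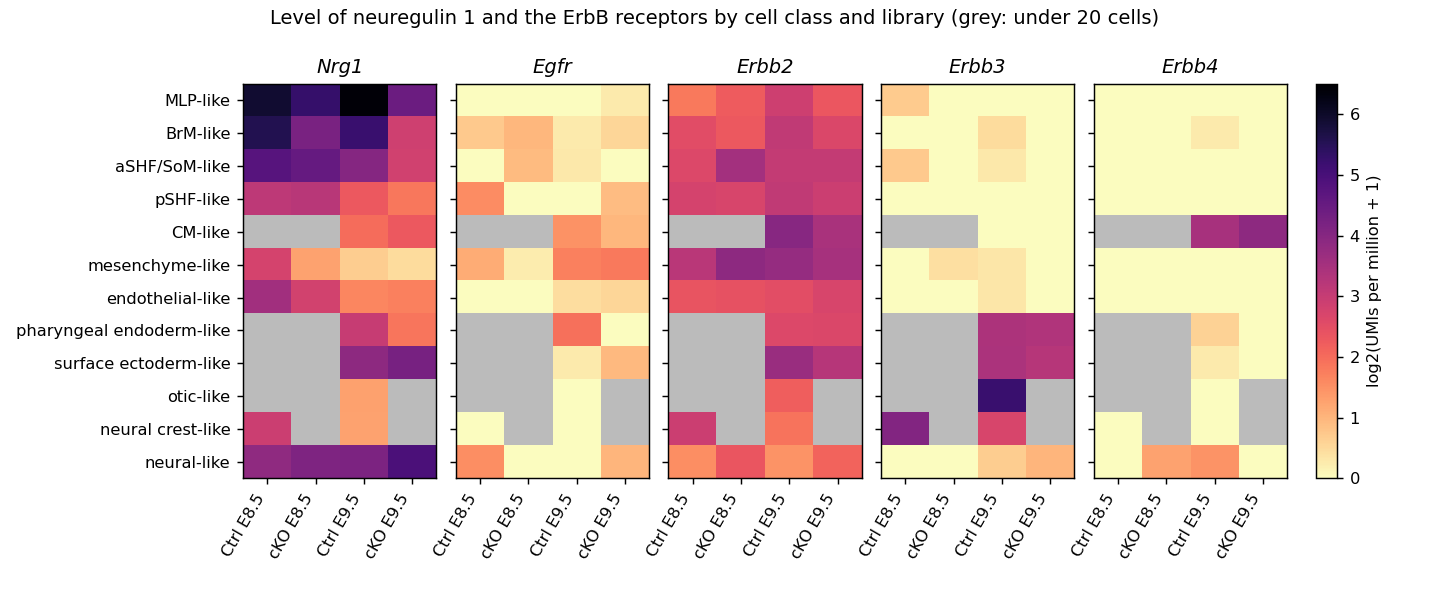
Colour gives log2(UPM + 1) of each gene (panels) in each cell class (rows) and library (columns), with grey where a class had under 20 cells; colours are to be read within a panel, since 3′ counts of different genes are not on a common scale. In the Ctrl columns the Nrg1 panel is darkest in the MLP-like and BrM-like rows, the Erbb3 panel in the otic-like and neural crest-like rows, and the Erbb4 panel in the CM-like row.

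Nrg1 (ENSMUSG00000062991; chromosome 8, 31807452 to 32891609, GRCm38.p6) gave 446 UMIs in Ctrl and 304 in cKO at E8.5, and 850 and 486 at E9.5. In MLP-like cells its level at E8.5 was 59.1 UPM (47.8 to 72.3) in Ctrl and 37.2 (30.3 to 45.3) in cKO, and at E9.5 it was 84.0 (71.4 to 98.2) in Ctrl and 20.5 (17.8 to 23.5) in cKO. In BrM-like cells, which carry genes of head muscle precursors, it was 46.4 UPM (39.1 to 54.6) and 17.4 (13.0 to 22.7) at E8.5, and 36.1 (32.6 to 40.01) and 6.26 (4.73 to 8.13) at E9.5. The cKO library was below the Ctrl library of its stage in both classes at both stages, and none of these pairs of intervals overlapped. The share of all genes with intervals apart in these classes was not computed, so the separation is not shown to be particular to Nrg1. In aSHF/SoM-like cells Nrg1 was at 26.1 UPM (18.7 to 35.6) and 22.3 (16.6 to 29.4) at E8.5, and at 14.97 (11.6 to 19.0) and 6.12 (4.24 to 8.55) at E9.5, so that only the E9.5 intervals were apart. The E8.5 log2 ratio of this class was -0.23 (-0.86 to 0.41), but -3.37 when cells were clustered without integration of the libraries, and the cause was not tested.

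The order of the classes by Nrg1 level depended on stage. In the Ctrl library of E8.5 the MLP-like and BrM-like intervals overlapped and stood above the aSHF/SoM-like interval. Below it came neural-like (13.4 UPM), endothelial-like (10.8), pSHF-like (7.73), neural crest-like (6.499) and mesenchyme-like cells (5.74), each with an interval that overlapped its neighbour's. In the Ctrl library of E9.5 the MLP-like level stood above the BrM-like level, and both stood above neural-like (16.9 UPM), aSHF/SoM-like (14.97) and surface ectoderm-like cells (13.6), whose intervals overlapped. Pharyngeal endoderm-like cells followed at 6.85 UPM. The pSHF-like (3.93), CM-like (2.97), endothelial-like (2.12), otic-like (1.44), neural crest-like (1.37) and mesenchyme-like cells (0.592) closed the order, again with overlapping neighbours.

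In the cKO libraries the order was another. At E8.5 the MLP-like level stood above those of aSHF/SoM-like, BrM-like and neural-like cells (16.5 UPM, 8.53 to 28.9), whose intervals overlapped, and mesenchyme-like cells were lowest at 1.37. At E9.5 neural-like cells were highest at 29.7 UPM (23.8 to 36.6). The MLP-like interval lay below that of neural-like cells. The surface ectoderm-like interval (17.7, 12.5 to 24.3) overlapped both. The BrM-like and aSHF/SoM-like levels, which also overlapped, were lower still.

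The neural-like class held both a strong and a weak source. A cluster led by Tubb3, Neurod1 and Neurog2, genes of young neurons, carried 41.3 UPM of Nrg1 (27.2 to 60.1) in 37 Ctrl cells at E9.5. A second cluster, with Fabp7, Hes5 and Pax6 of neural progenitors, carried 1.88 (0.227 to 6.77) in 66 cells of the same library.

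**Figure D2:**
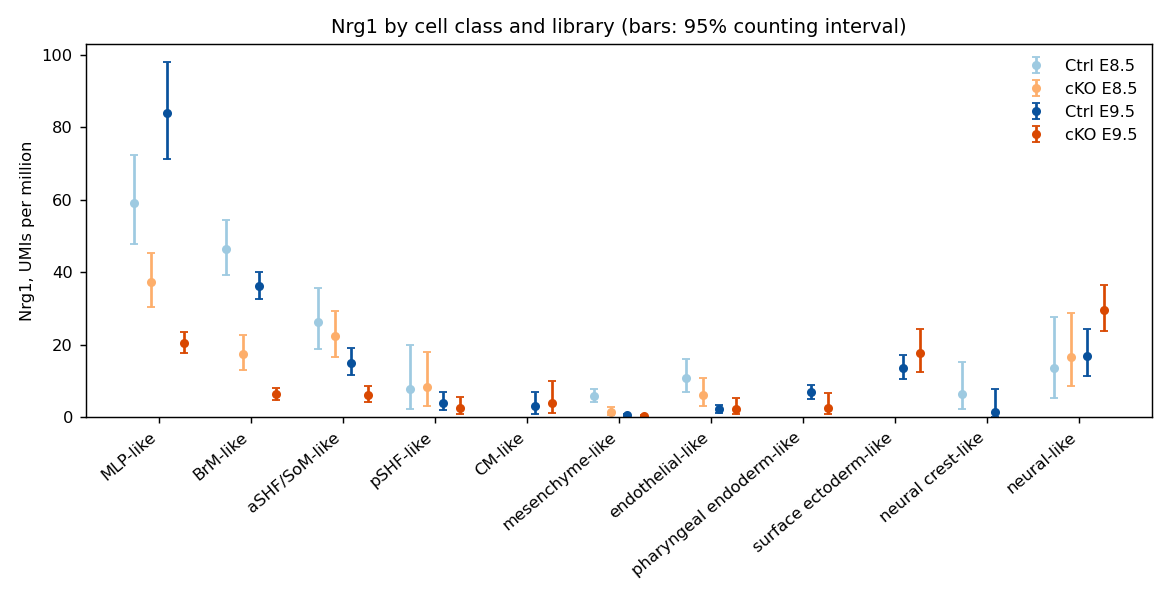
Nrg1 level in UPM (vertical axis, linear) for each cell class and library with at least 20 cells (the otic-like class is not drawn); points are summed UMIs over summed totals and bars are exact 95% Poisson intervals. The cKO points of MLP-like and BrM-like cells lie below the Ctrl points of their stage, and at E9.5 the surface ectoderm-like and neural-like cKO points do not.

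Endothelial-like cells of the Tbx1 lineage were a weak source of Nrg1. Other endothelium and endocardium was not sampled, so these values do not describe the endocardium as a whole. They gave 23 UMIs from 105 Ctrl cells and 11 from 69 cKO cells at E8.5, and 18 from 422 Ctrl cells and 5 from 123 cKO cells at E9.5. Ctrl cells of E9.5 were also thinned to 10000 UMIs each and divided by endocardial markers such as Npr3 and Nfatc1. The 213 cells with at least 2 of the markers held 9 Nrg1 UMIs (4.23 UPM, 1.93 to 8.02), the 177 others held 2 (1.13, 0.137 to 4.08), and the intervals overlapped. At E8.5 the order was the other way, with 1 UMI in 32 Ctrl cells with the markers (3.13 UPM, 0.0791 to 17.4) and 6 in 69 without (8.70, 3.19 to 18.9), and with 0 in 22 and 6 in 46 cKO cells, again with overlapping intervals. At E9.5 the level in the endocardial fraction was below that of MLP-like and BrM-like cells of the same library.

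Counted by cell, after thinning to 10000 UMIs, at least 1 Nrg1 UMI was seen at E8.5 in 37 of 84 MLP-like Ctrl cells (44.0%, 33.2 to 55.3) and 32 of 100 cKO cells (32.0%, 23.0 to 42.1). At E9.5 it was seen in 60 of 107 Ctrl cells (56.1%, 46.1 to 65.7) and 106 of 548 cKO cells (19.3%, 16.1 to 22.9). The intervals overlapped at E8.5 and were apart at E9.5. For BrM-like cells the shares of Ctrl and cKO were 38.8% (31.2 to 46.8) and 12.4% (6.94 to 19.9) at E8.5 and 24.3% (20.5 to 28.3) and 5.98% (3.94 to 8.64) at E9.5, apart at both stages. How many of all genes had such shares apart was not computed, so the separation is not shown to be particular to Nrg1.

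Mesenchyme-like cells, the class with the lowest Nrg1 level, were used as the comparison for a share that free RNA could give. How far their own UMIs were free RNA was not tested. Their shares were 4.99% (3.03 to 7.68) and 1.56% (0.426 to 3.94) at E8.5 and 0.691% (0.332 to 1.27) and 0.407% (0.164 to 0.837) at E9.5. All 8 MLP-like and BrM-like shares stood above them. The class was taken for its low Nrg1 level, so this order was set in advance and tests nothing. The median depth at E9.5 was 14856 and 15078 UMIs per cell in mesenchyme-like cells and 15447 to 18545 in the others, and at E8.5 it was 15699 and 21170 against 18000 to 25961. Without thinning, Nrg1 was seen in 62.2% and 53.5% of MLP-like Ctrl and cKO cells at E8.5 and in 65.5% and 24.3% at E9.5.

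Among Nrg1-positive cells of E9.5 the mean count in Ctrl and cKO was 1.58 and 1.24 UMIs for MLP-like cells and 1.36 and 1.04 for BrM-like cells. At least 3 UMIs were found in 6 of 107 MLP-like Ctrl cells (5.61%, 2.09 to 11.8) and 2 of 548 cKO cells (0.365%, 0.0442 to 1.31). Both measures go down with the share of positive cells, so they are no separate result.

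Within MLP-like and BrM-like cells the intervals of the Nrg1 share with and without a Tbx1 UMI in the same cell overlapped. At E9.5 it was 56.1% of 82 MLP-like Ctrl cells with Tbx1 (44.7 to 67.0) and 56.0% of 25 without (34.9 to 75.6), and 19.6% of 414 and 18.7% of 134 cKO cells. For BrM-like cells it was 25.5% of 385 and 19.8% of 101 Ctrl cells, and 7.40% of 311 and 2.42% of 124 cKO cells, with overlapping intervals in each pair. In BrM-like cells the share with Tbx1 was the higher at E9.5 in both genotypes. Overlap of separate intervals does not exclude a difference, which was not tested. The aSHF/SoM-like cells of the E8.5 Ctrl library were an exception, with Nrg1 in 10 of 24 cells with Tbx1 (41.7%, 22.1 to 63.4) and 5 of 51 without (9.80%, 3.26 to 21.4).

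The first comparison of genotypes took all cells of a library together. At E8.5 the cKO/Ctrl log2 ratio was -0.58 (-0.80 to -0.37) for Nrg1, 0.56 (0.25 to 0.87) for Erbb2, -0.77 (-2.14 to 0.52) for Erbb3 and -1.03 (-2.58 to 0.38) for Egfr. Erbb4 had 3 UMIs over both libraries, too few for a ratio. Of the 4 members with at least 20 UMIs, Egfr, from 14 and 7 UMIs, was past 2-fold lower, where 1.3% of all genes were, and none was past 2-fold higher, where 2.92% were. With cells thinned to 10000 UMIs the signs of Egfr and Erbb3 turned, to 0.106 and 0.369, so neither direction was settled at this depth.

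At E9.5 the ratio over all cells was -0.96 (-1.12 to -0.79) for Nrg1, -2.29 (-2.80 to -1.81) for Erbb3, -0.91 (-1.90 to 0.04) for Erbb4 (0.32 with class shares held at those of Ctrl), -0.23 (-0.63 to 0.17) for Egfr and -0.18 (-0.32 to -0.03) for Erbb2. Erbb3 was the 1 member of 5 past 2-fold lower, where 9.8% of all genes were, and no member was past 2-fold higher, where 3.56% were. The median gene was itself at -0.26 at E9.5, against 0.04 at E8.5. Relative to the median gene, the E9.5 values were -0.70 for Nrg1, -2.03 for Erbb3, 0.08 for Erbb2 and 0.03 for Egfr. The E9.5 cKO library was also counted on another gene table, whose part in these ratios was not tested. In a sum over all cells, fewer cells of a type and less RNA per cell cannot be told apart, so the next comparisons were made within classes.

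Within BrM-like cells the cKO/Ctrl log2 ratio of Nrg1 was -1.42 (-1.90 to -0.95) at E8.5, where 1.9% of all genes in that class were past 2-fold lower and 3.28% higher. It was -2.53 (-2.96 to -2.12) at E9.5, a level 5.77-fold lower, where 7.17% of genes were past 2-fold lower. In MLP-like cells it was -0.67 (-1.09 to -0.24) at E8.5, not past 2-fold, and -2.04 (-2.34 to -1.73) at E9.5, a level 4.10-fold lower, where 7.02% were past 2-fold lower. After subtraction of the ratio of all other cells in the same libraries, the MLP-like values were 0.0838 at E8.5 and -0.67 at E9.5, the first no longer lower and the second no longer past 2-fold. Those other cells included the BrM-like class. For BrM-like cells the same subtraction left -1.12 at E8.5 and -2.19 at E9.5, both still past 2-fold. Erbb2 in the same cells at E9.5 was at -0.68 (-1.64 to 0.38) in MLP-like and -0.51 (-1.06 to 0.04) in BrM-like cells, intervals that include no difference.

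The larger cluster of the BrM-like class was led by Tcf21 and Lhx2, transcription factor genes of the head muscle precursors. In it the Nrg1 ratio was -1.79 (-2.41 to -1.20) at E8.5, where 1.97% of genes were past 2-fold lower, and -2.71 (-3.31 to -2.15) at E9.5, where 7.72% were.

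Nrg1 was also lower in some other mesoderm of the later cKO library, at -1.29 (-1.93 to -0.67) on the log2 scale in aSHF/SoM-like cells, where 5.25% of genes were past 2-fold lower. Subtraction of the other cells' ratio left -0.36 there. The ratio was -2.53 (-3.65 to -1.54) in an unnamed cluster with Meox1, Hoxa2 and Tcf15 among its leading genes, from 5.76 UPM in Ctrl to 0.996 in cKO, where 6.35% were. Pharyngeal endoderm-like cells had 53 Nrg1 UMIs in 414 Ctrl cells and 4 in 72 cKO cells, a ratio of -1.38 (-3.31 to 0.06) that includes no difference, where 9.08% were. The values were above 0, with intervals that include no difference, in CM-like cells at 0.40 (-1.94 to 2.61), in endothelial-like cells at 0.11 (-1.68 to 1.59) and in an unnamed cluster led by Notch2 and Slc39a1 at 0.88 (-1.12 to 3.41).

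In 2 other sources of the same libraries the intervals included no difference. Surface ectoderm-like cells of E9.5 were at 13.6 UPM (10.6 to 17.2) in Ctrl and 17.7 (12.5 to 24.3) in cKO, which is a cKO/Ctrl log2 value of 0.38 (-0.23 to 0.97). The Neurod1 cluster was at 41.3 (27.2 to 60.1) and 32.9 (26.3 to 40.7), a ratio of -0.33 (-0.97 to 0.36) that leaves room for a lower level in cKO. For the neural-like class as a whole the ratio was 0.82 (0.20 to 1.48), but the Neurod1 cluster, the richer in Nrg1, was 37 of its 103 Ctrl cells and 126 of its 163 cKO cells. The difference between the mesodermal and these other sources was not tested, since each ratio rests on 1 pair of libraries.

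**Figure D3:**
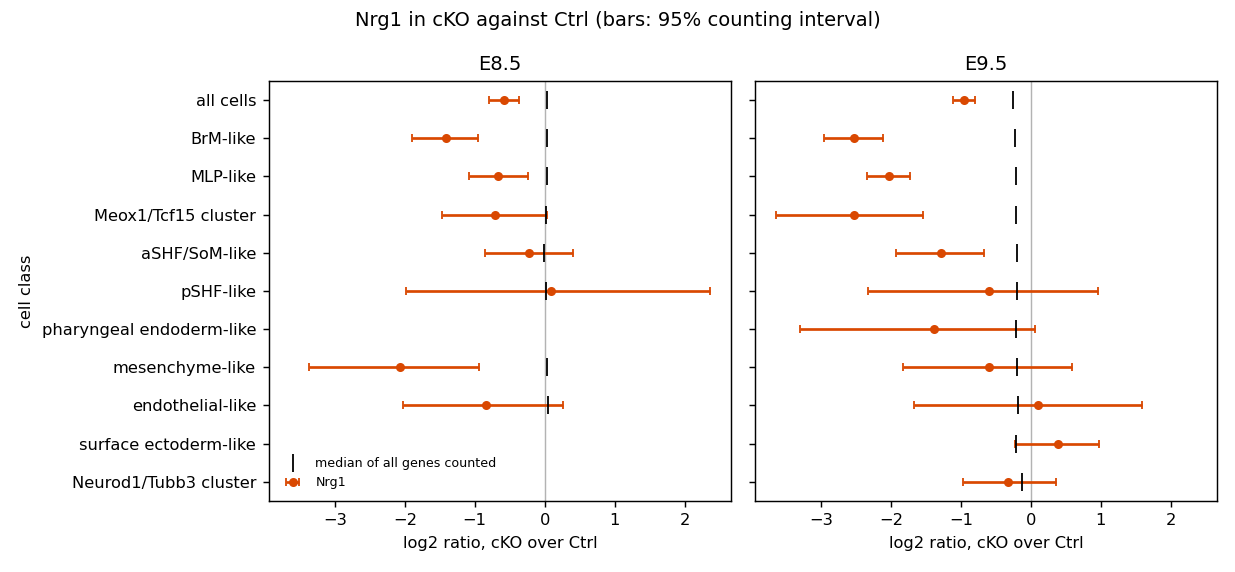
The log2 ratio of Nrg1, cKO over Ctrl (horizontal axis), at E8.5 and E9.5, for all cells and by class, with exact 95% counting intervals; the black ticks mark the median of all genes counted in the same class. At E9.5 the BrM-like, MLP-like, Meox1/Tcf15 and aSHF/SoM-like intervals lie wholly below 0, and those of surface ectoderm-like cells and the Neurod1/Tubb3 cluster include 0.

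Mesenchyme-like cells held Nrg1 at E8.5, with 39 UMIs in 409 Ctrl cells (5.74 UPM, 4.08 to 7.84) and 8 in 267 cKO cells (1.37, 0.593 to 2.71). The log2 ratio was -2.06 (-3.37 to -0.94), where 1.39% of genes were past 2-fold lower. Of the 39 Ctrl UMIs, 21 came from 1 cluster led by Lum and Nusap1, in which cKO cells held 2. The part of free RNA in this class was not tested. Without integration of the libraries no Ctrl cell of E8.5 fell in a mesenchyme-like cluster. The E8.5 ratio of this class thus rests on integration. At E9.5 Nrg1 was at 0.592 and 0.390 UPM there, with a ratio of -0.60 (-1.83 to 0.59), but of -1.99 without integration, a move whose cause was not tested.

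The cells that held the Nrg1 UMIs differed between the genotypes. At E9.5, BrM-like cells held 43.9% of the UMIs in Ctrl (373 of 850) and 11.5% in cKO (56 of 486), MLP-like cells held 18.6% and 43.4%, and neural-like cells 3.41% and 18.1%. MLP-like cells were 2.13% of the Ctrl cells and 10.2% of the cKO cells, or 3.63% and 9.54% when no class marker was among the clustering genes. Their Nrg1 level was lower in cKO while their share of cells was higher, and these entered the sum over all cells with opposite signs. With the class shares held at those of the Ctrl library, the ratio over all cells was -1.27 at E9.5 and -0.85 at E8.5, in place of -0.96 and -0.58.

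**Figure D4:**
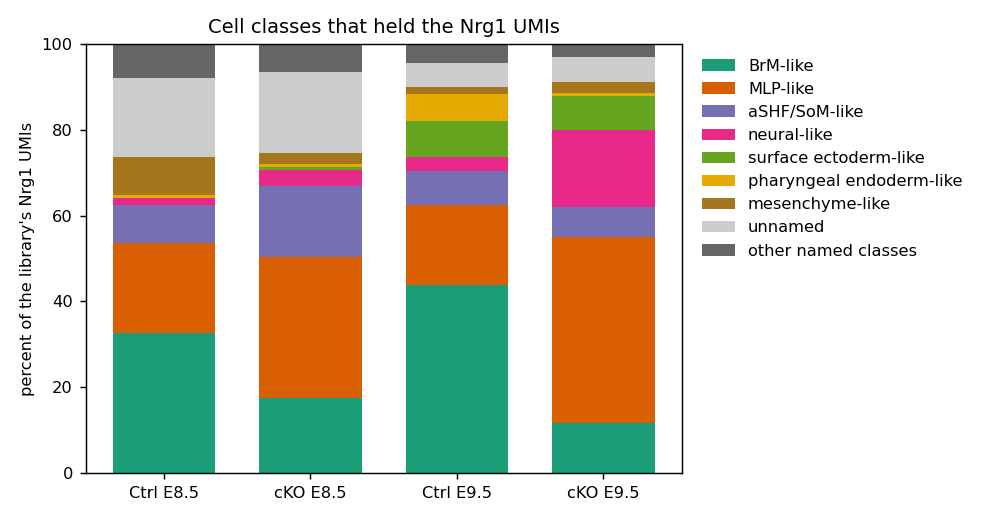
Percent of each library's Nrg1 UMIs (vertical axis) held by each cell class (colours). The BrM-like part is 32.5% in Ctrl and 17.4% in cKO at E8.5 and 43.9% and 11.5% at E9.5, and the MLP-like part is larger in cKO at both stages.

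Between the stages, the Ctrl libraries had less Nrg1 at E9.5 in most mesodermal classes. Over all cells the E9.5/E8.5 log2 ratio was -0.97 (-1.14 to -0.80), beside a median of 0.39 over all genes. It was -3.28 (-4.24 to -2.38) in mesenchyme-like cells, where 3.87% of genes were past 2-fold lower, and -2.34 (-3.32 to -1.39) in endothelial-like cells, where 4.25% were. It was -0.81 (-1.39 to -0.20) in aSHF/SoM-like and -0.36 (-0.64 to -0.07) in BrM-like cells. MLP-like cells were at 0.51 (0.13 to 0.89), where the median gene was at 0.26. With no class marker among the clustering genes their levels were 53.9 UPM at E8.5 and 61.1 at E9.5, in place of 59.1 and 84.0, so the size of this difference depended on the clustering. Without integration of the libraries no E8.5 Ctrl cell fell in the mesenchyme-like, BrM-like or MLP-like class. The stage ratios of these classes thus rest on integration.

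In cKO the stage ratio of Nrg1 was -1.35 (-1.56 to -1.14) over all cells, -0.86 (-1.21 to -0.50) in MLP-like, -1.47 (-2.04 to -0.90) in BrM-like and -1.87 (-2.54 to -1.21) in aSHF/SoM-like cells, where 5.26% and 3.86% of genes were past 2-fold lower in the last pair. Whether the stage ratios of Ctrl and cKO differ was not tested. The dissected regions differed between the stages, and their part in these ratios was not tested.

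The receptors stood higher at the later stage in Ctrl when all cells were summed. Over all cells the E9.5/E8.5 log2 ratio was 1.06 (0.25 to 1.98) for Egfr, 1.79 (1.03 to 2.66) for Erbb3, 2.85 (0.25 to 8.21) for Erbb4, from 27 and 1 UMIs, and 0.59 (0.34 to 0.85) for Erbb2. The median gene was at 0.39, inside the Egfr, Erbb4 and Erbb2 intervals. Of the receptors, only Erbb3 stood above the median gene beyond counting error. The 3 members past 2-fold higher stood beside 17.9% of all genes, and none was past 2-fold lower, where 2.98% were. The epithelial classes were 1.12% of Ctrl cells at E8.5 and 13.8% at E9.5, and held 0.0% and 89.2% of the Erbb3 UMIs. More cells of a class and more RNA per cell cannot be told apart in these sums. In cKO, Egfr was past 2-fold higher at 1.86 (0.76 to 3.21), where 11.3% of genes were, Nrg1 was past 2-fold lower, where 5.94% were, and Erbb3 was at 0.27 (-0.79 to 1.49). The Erbb2 level in cKO was lower at E9.5 than at E8.5, with overlapping intervals.

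Erbb3 (ENSMUSG00000018166; chromosome 10, 128567523 to 128589635, GRCm38.p6) was an epithelial receptor at E9.5. Its level in Ctrl was 36.1 UPM (26.8 to 47.6) in otic-like cells, which carry genes of the inner ear primordium, 9.71 (7.21 to 12.8) in surface ectoderm-like cells, 9.43 (7.39 to 11.9) in pharyngeal endoderm-like cells and 5.48 (1.49 to 14.0) in neural crest-like cells. The otic-like level stood above the others, whose intervals overlapped. The otic-like, surface ectoderm-like and endoderm-like classes together held 173 of its 194 UMIs in Ctrl (89.2%, 83.9 to 93.2) and 39 of 44 in cKO (88.6%, 75.4 to 96.2).

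Few epithelial cells were captured at E8.5. There, 12 of the 15 Ctrl UMIs of Erbb3 came from 29 neural crest-like cells (15.6 UPM, 8.06 to 27.2), and of the 9 cKO UMIs, 4 came from 3 otic-like and 3 from 15 neural crest-like cells. Mesodermal classes were nearly empty of Erbb3. At E9.5 no UMI was found in MLP-like, pSHF-like or CM-like cells of either genotype, and BrM-like cells gave 4 in Ctrl and 0 in cKO.

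Within its classes Erbb3 showed no difference between the genotypes at E9.5 that counting error could resolve. In pharyngeal endoderm-like cells it was at 9.43 UPM in Ctrl and 9.21 (5.03 to 15.4) in cKO, and the log2 ratio was -0.03 (-0.98 to 0.80). In surface ectoderm-like cells it was at 9.71 and 8.39 (4.97 to 13.3), a ratio of -0.21 (-1.08 to 0.59). The 9 otic-like cells of cKO gave 7 UMIs, 50.3 UPM (20.2 to 104), too few cells for a ratio.

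The share of epithelial cells did differ between the libraries. The 3 classes were 751 of the E9.5 Ctrl cells (13.8%, 12.9 to 14.7) and 194 of the cKO cells (3.096%, 2.68 to 3.56), or 13.7% and 3.08% when no class marker was among the clustering genes. With class shares held at those of Ctrl, the ratio of Erbb3 over all cells was -0.0115 in place of -2.29. That value also used the 9 otic-like cKO cells, although ratios within a class needed 20 cells. Genotype, dissection and sorting cannot be told apart in the epithelial share, with 1 library per group.

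**Figure D5:**
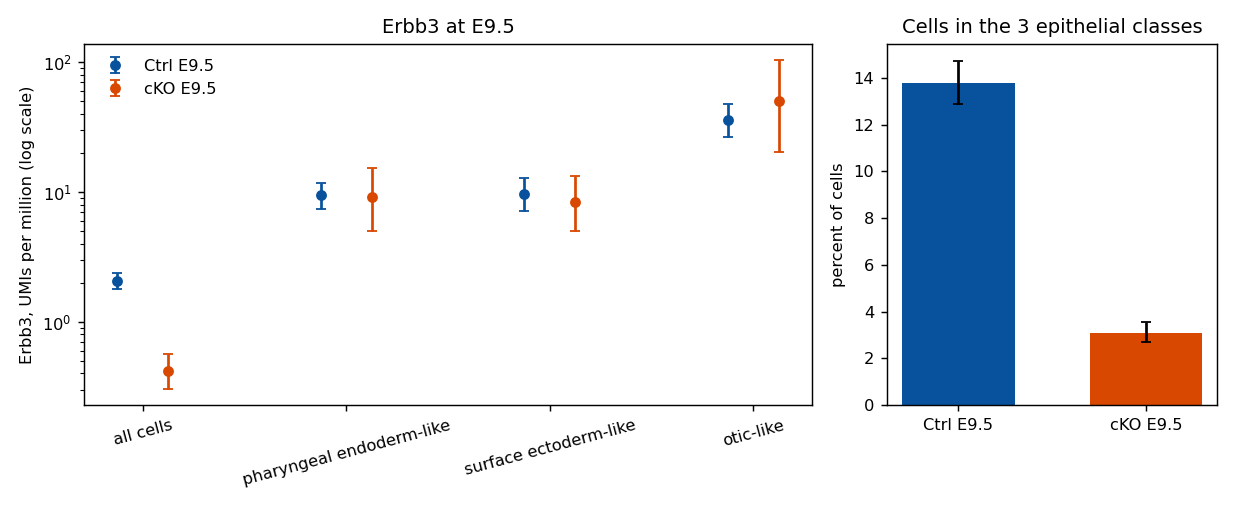
Left, Erbb3 level in UPM on a log axis at E9.5 for all cells and for the 3 epithelial classes, with exact 95% Poisson intervals; right, percent of cells in these classes with exact Clopper-Pearson intervals. The intervals of all Ctrl cells (2.06 UPM) and all cKO cells (0.421 UPM) are apart, those within each class overlap, and the share of epithelial cells is 13.8% against 3.096%.

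Erbb4 (ENSMUSG00000062209; chromosome 1, 68031884 to 69108576, GRCm38.p6), the receptor of the myocardium, was the sparsest, with 46 UMIs in all 4 libraries. At E9.5, CM-like cells held 17 of 27 UMIs in Ctrl and 14 of 16 in cKO, although they were 1.98% and 0.878% of the cells. Their level was 10.1 UPM (5.88 to 16.2) in 108 Ctrl cells and 13.7 (7.48 to 23.0) in 55 cKO cells, and the log2 ratio was 0.44 (-0.69 to 1.55). No Erbb4 UMI was found in mesenchyme-like, endothelial-like, MLP-like, aSHF/SoM-like or pSHF-like cells of any library, and in the 1933 mesenchyme-like cells of E9.5 cKO the interval ended at 0.120 UPM. After thinning, Erbb4 was seen in 6 of 94 CM-like Ctrl cells (6.38%, 2.38 to 13.4) and 3 of 52 cKO cells (5.77%, 1.21 to 15.9) at E9.5, with a median depth of 14901 and 17365 UMIs. In mesenchyme-like cells of those libraries it was seen in 0 of 1448 and 0 of 1719, which, at 3 counts, allows shares of cells with a UMI of up to 0.207% and 0.175%.

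Erbb2 (ENSMUSG00000062312; chromosome 11, 98412484 to 98437716, GRCm38.p6), the shared partner receptor, was broad. In Ctrl at E9.5 it was lowest in neural-like cells, at 1.74 UPM (0.360 to 5.10), and highest in surface ectoderm-like (12.1, 9.24 to 15.4), mesenchyme-like (12.4, 11.03 to 13.8) and CM-like cells (14.9, 9.61 to 21.9), whose intervals overlapped. Endothelial-like (4.71, 3.36 to 6.41), MLP-like (6.38, 3.30 to 11.1) and BrM-like cells (7.46, 5.89 to 9.33) lay between. Among mesenchyme-like clusters, 1 led by Tagln and Vtn carried 18.1 UPM (14.8 to 22.0).

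The Erbb2 ratio had opposite signs at the stages. Over all cells the level at E8.5 was 5.82 UPM (4.92 to 6.85) in Ctrl and 8.59 (7.49 to 9.80) in cKO, and at E9.5 it was 8.77 (8.18 to 9.39) and 7.77 (7.24 to 8.32). The Ctrl library of E8.5 was the low one. In mesenchyme-like cells the cKO/Ctrl log2 ratio was 0.76 (0.25 to 1.29) at E8.5 and -0.27 (-0.50 to -0.04) at E9.5. With TMM scaling, which sets the median gene near 0, the E9.5 ratio over all cells turned to 0.0834. The 1 cKO/Ctrl ratio of Erbb2 past 2-fold in a named class was in aSHF/SoM-like cells at E8.5, at 1.03 (-0.17 to 2.40), an interval that includes no difference, where 3.45% of genes were past 2-fold higher.

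Egfr (ENSMUSG00000020122; chromosome 11, 16752203 to 16913907, GRCm38.p6) was at 0.555 UPM in Ctrl and 0.272 in cKO at E8.5, and at 1.16 and 0.984 at E9.5, over all cells. Mesenchyme-like cells of E9.5 held 58 of 109 UMIs in Ctrl and 78 of 103 in cKO, at 2.29 (1.74 to 2.96) and 2.53 UPM (2.004 to 3.16), and the log2 ratio was 0.15 (-0.36 to 0.66). Pharyngeal endoderm-like cells had 22 Egfr UMIs in 414 Ctrl cells and 0 in 72 cKO cells. With the 0 set to a floor of 3 UMIs the cKO level was 1.44-fold lower. That value has no interval, so a difference beyond counting error is not shown. Unnamed cells held 19 and 10, a ratio of -1.62 (-2.89 to -0.45), where 4.42% of genes were past 2-fold lower. MLP-like cells gave 2 Egfr UMIs in E9.5 cKO and 0 in the other libraries.

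Ligand and receptors were then sought in the same cells, after thinning. Erbb2 together with Erbb3 or Erbb4 was seen at E9.5 in 13 of 4898 Ctrl cells (0.265%, 0.141 to 0.453) and 1 of 5548 cKO cells (0.018%, 0.00046 to 0.1004). At E8.5 it was seen in 0 of 1299 Ctrl cells, which, at 3 counts, allows a share of cells with such UMIs of up to 0.231%, and 3 of 1006 cKO cells. Of the 13 cells, 7 were pharyngeal endoderm-like, 2 otic-like and 2 CM-like, and 1 each was mesenchyme-like and neural crest-like. The epithelial classes made up 13.8% of Ctrl and 3.1% of cKO cells at E9.5. Counts over all cells thus cannot tell fewer cells of a class from fewer such cells within it. The shares given for the pair are of cells with UMIs, and a transcript can be missed at this depth, so they set no limit on the share of cells that express the pair. Nrg1 with the receptor pair was seen in 1 cell, pharyngeal endoderm-like and of the E9.5 Ctrl library. Nrg1 with Erbb2 was seen in 10 of 107 MLP-like Ctrl cells and 7 of 548 cKO cells at E9.5, where 11 and 23 cells had Erbb2. Nrg1 itself was seen in 56.1% and 19.3% of these cells. The number with both that separate detection would give was not computed, so these counts are no separate result.

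The epithelial classes held both ligand and receptors as classes. Surface ectoderm-like cells of E9.5 had Nrg1 at 13.6 UPM in Ctrl and 17.7 in cKO, Erbb3 at 9.71 and 8.39 and Erbb2 at 12.1 and 8.39, with a log2 ratio of -0.52 (-1.37 to 0.26) for Erbb2. Pharyngeal endoderm-like cells had Nrg1 at 6.85 and 2.63, Erbb3 at 9.43 and 9.21 and Erbb2 at 5.17 and 5.26, although thinning moved the Erbb2 ratio of this class from 0.03 to -1.88. The MLP-like and BrM-like senders held Nrg1 and Erbb2, with at most 4 UMIs of Erbb3 or of Erbb4 in a library.

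The rest of the pathway was read from a list of 49 genes beside the members. Among the other ligands, Nrg2, Nrg3 and Nrg4 gave at most 41, 2 and 17 UMIs in a library. Hbegf, a ligand of EGFR and ErbB4, was at 8.44 UPM in Ctrl and 10.5 in cKO at E8.5 and at 8.52 and 8.18 at E9.5, and in pharyngeal endoderm-like cells of E9.5 it was at 24.5 (21.2 to 28.3) and 24.99 (17.7 to 34.3). Tgfa, an EGFR ligand, was at 2.98 UPM in Ctrl and 0.612 in cKO over all cells of E9.5, and the log2 ratio was -2.28 (-2.70 to -1.89). Of its 281 Ctrl UMIs, 155 lay in pharyngeal endoderm-like cells, in which it was at 20.03 UPM (16.997 to 23.4) in Ctrl and 13.8 (8.55 to 21.1) in cKO.

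Of the 49 pathway genes, 41 had at least 20 UMIs at E8.5 over all cells. None was past 2-fold lower and 1 was past 2-fold higher, Grb7, which encodes an adaptor that binds ErbB2, at 1.70 UPM in Ctrl and 3.46 in cKO (log2 ratio 1.02, 0.48 to 1.58). The list's median was 0.19 and that of all genes 0.04. At E9.5, 4 of 45 were past 2-fold lower (8.89%, beside 9.8% of all genes) and 1 was higher (2.22%, beside 3.56%). The lower ones were Tgfa, Grb7 at -1.95 (-2.17 to -1.73), the protease gene Bace2 at -2.07 (-3.31 to -0.98) and the immediate early gene Fos at -1.93 (-2.33 to -1.55), and the higher one was Nrg2 at 1.04 (0.21 to 1.92), from 18 Ctrl and 41 cKO UMIs. The list's median was -0.16 and that of all genes -0.26.

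In MLP-like cells of E9.5, 3 of 38 pathway genes were past 2-fold lower and 1 was higher, beside 7.02% and 4.52% of all genes, and the median was -0.26 for the list and -0.22 for all genes. The lower ones were Bace1, a protease that can cleave neuregulin 1, at -1.03 (-1.71 to -0.31), Grb7 at -2.34 (-3.59 to -1.08) and Rhbdf2, a partner of the sheddase ADAM17, at -1.82 (-3.13 to -0.43). The higher one was Hbegf, at 2.66 UPM in Ctrl and 5.83 in cKO, with an interval of -0.17 to 2.81 that includes no difference. In BrM-like cells 1 of 40 was lower, Tgfa at -2.19 (-4.19 to -0.62), and 1 was higher, the immediate early gene Egr1 at 1.33 (0.25 to 2.51), beside 7.17% and 2.96% of all genes. Fos, below the minimum of 20 UMIs, was at -2.28 (-3.83 to -0.71) in MLP-like cells.

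At E8.5, 1 of 31 pathway genes was past 2-fold lower in MLP-like cells, Pik3r1, a regulatory subunit of PI3 kinase, at -1.17 (-2.14 to -0.23), where 1.8% of all genes were. The 1 higher was Hbegf at 1.05 (-0.31 to 2.65), an interval that includes no difference, where 4.34% were. Below the minimum of 20 UMIs, the protease gene Adam19 was at 3.05 (0.34 to 8.45), from 1 Ctrl and 14 cKO UMIs, and Tgfa had 0 and 11 UMIs. None of 37 genes was past 2-fold in BrM-like cells of that stage, and the list's median there was 0.19 against 0.04 for all genes.

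The genes with the pattern most like each member were sought by the Pearson correlation of log2(UPM + 1) over 37 groups of class and library with at least 20 cells, among 12116 genes with at least 200 UMIs. These groups share libraries and depth, so the correlations are a description. For Nrg1 they were Dusp14 (r = 0.74), Sall1 (0.70) and Ankrd6 (0.69). For Erbb3 they were Cldn9 (0.83), Grhl2 (0.82) and Arhgef19 (0.82), and for Erbb4 Cox6a2 (0.91), Actn2 (0.90) and Tdgf1 (0.90). For Erbb2 they were Vimp (0.73), Apbb2 (0.72) and Fam114a1 (0.72), and for Egfr Ppp1r3c (0.61), Lypd6 (0.60) and Adamtsl1 (0.58). Cldn9 encodes a tight junction protein and Grhl2 an epithelial transcription factor, and Actn2 and Cox6a2 encode a sarcomere and a mitochondrial protein of striated muscle. With Spearman's correlation, 3 of the 3 genes remained for Nrg1, 2 for Egfr and for Erbb2, and 0 for Erbb3 and for Erbb4.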

How the data were processed

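Raw UMI counts per gene and cell, made with Cell Ranger on mm10 without normalization, were deposited by the authors for 4 droplet libraries. The cKO E9.5 counts used another gene table (31053 genes, against 27998 in the other 3), so 27514 shared Ensembl IDs were kept, with every deposited barcode. Cells were clustered in Seurat 5.3.0 under R 4.3.3 (2000 variable genes, reciprocal PCA integration, 30 components, resolution 1) without the members, the pathway list or Tbx1. Naming a cluster required 3 or more of a class's markers at 1.5 times the other cells, at least 1 of them among its top 10 genes. Only cells of the Ctrl libraries were used for naming. Some leading genes, and results that need them, are not reported here. Doublets marked by Scrublet were left out only in an alternative.

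UMIs were summed per class and library and scaled to 1000000 (UPM), in Python 3.11.15 with scipy 1.17.1. Sums carry exact Poisson, ratios exact conditional binomial and shares exact Clopper-Pearson 95% intervals. Ratios needed 20 cells in both libraries, sums of 0 were set to a floor of 3 UMIs, and pairs of sums that were both 3 or less got no ratio. Values with class shares held had no minimum of cells per class. With 1 library per group no p-value was computed. A gene was past 2-fold at an absolute log2 ratio of at least 1, among genes with at least 20 UMIs in both sums together. For shares of cells, each cell was thinned to 10000 UMIs, which left out 135 and 84 cells (Ctrl and cKO, E8.5) and 555 and 718 (E9.5). Ratios and intervals were tested on simulated counts.

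The members and gene lists were chosen with earlier results of these data known. Named genes were the members, pathway genes past 2-fold with an interval excluding 0, and the 3 genes most correlated with each member. Hbegf, Nrg2, Nrg3 and Nrg4 were named after their values were seen. Alternatives were TMM scaling (edgeR 4.0.16), barcodes with at least 2000 UMIs and at most 10% mitochondrial UMIs, doublets left out, thinned cells, other clusterings, class shares held at Ctrl and subtraction of the other cells' ratio. Coordinates are from RefSeq's GRCm38.p6 annotation.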

Additional observations from a re-analysis of the deposited data

Results flagged for a closer look

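Erbb2 differed in the sign of its cKO/Ctrl log2 ratio between the stages. The ratio was 0.56 at E8.5 and -0.18 at E9.5 over all cells, and 0.76 and -0.27 in mesenchyme-like cells, with counting intervals on opposite sides of 0. The difference between the stages was not tested, since each ratio rests on 1 pair of libraries. The median gene over all cells was at -0.26 at E9.5, below the Erbb2 ratio of that stage.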

How the results depend on the processing

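With 1 library per group no library could be left out, and the only error known is that of counting. No paired analysis was possible because each group had 1 library. For the ratios over all cells and those of Nrg1 in MLP-like and BrM-like cells, 67 alternative values stayed within the counting interval of the value reported and 12 did not. For all other values (other class ratios, shares of cells, most similar genes and shares of genes past a fold), 269 alternatives stayed within their limits and 53 did not. At E9.5 Nrg1 was lower in cKO under each alternative run, over all cells and in MLP-like and BrM-like cells. Over all cells it was -0.70 with TMM scaling, -0.76 with thinned cells and -1.27 with class shares held, and at E8.5 -0.85 with class shares held. In MLP-like cells of E9.5 it was -1.72 when no class marker was among the clustering genes, -2.46 without integration and -0.67 after subtraction of the other cells' ratio. At E8.5 that subtraction gave 0.0838, so the MLP-like ratio was no lower than that of the other cells together. Holding class shares moved Erbb3 at E9.5 to -0.0115 and Erbb4 to 0.32, by its own construction. Thinning moved Erbb3 to -2.87, and the cause was not tested. TMM scaling moved Erbb2 at E9.5 to 0.0834 and Egfr to 0.0264, both now above 0. Thinning turned the E8.5 signs of Egfr and Erbb3, to 0.106 and 0.369, within their counting intervals. Without integration no value was had for MLP-like, BrM-like and mesenchyme-like cells at E8.5.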
